A study of Mus musculus with 56 samples.

Results

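The Ikaros family is a set of 5 zinc-finger transcription factors, encoded in the mouse by *Ikzf1* (Ikaros), *Ikzf2* (Helios), *Ikzf3* (Aiolos), *Ikzf4* (Eos) and *Ikzf5* (Pegasus). The members were taken by their Ensembl identifiers, and all 5 were present among the 55359 genes of the RNA count table and among the 19657 genes that passed the low-count filter. The RNA came from CD8 T cells specific for the OVA:Kb peptide-MHC complex (T_FGS), sorted from the spleen and lymph nodes of C57BL/6 female mice as 200 cells per library and amplified with SmartSeq2, a full-length protocol.

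There were 7 groups. Naive mice had no treatment (n = 3), and Sensitized mice had rejected a 2W-OVA.BALB/c skin graft at least a month before (n = 4). N+P mice were naive females mated with 2W-OVA.BALB/c males and sampled in the first days after birth, and their cells were sorted as N+P C1 (PD1-, n = 3) and N+P C5 (PD1+CD73+, n = 3). S+P mice were grafted and then pregnant, and their cells were sorted as S+P C4 (PD1-, n = 6), S+P C5 (PD1+CD73+, n = 6) and S+P C7 (PD1+CD73-, n = 5). Naive and Sensitized cells were not split by PD1 and CD73, so a difference between a subset and those groups joins pregnancy and the sort gate, which cannot be told apart.

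Ikaros family proteins bind DNA through zinc fingers near the N terminus and pair with themselves and with each other through zinc fingers at the C terminus. They recruit chromatin complexes, chiefly the NuRD nucleosome remodelling and deacetylase complex, and can repress or activate genes. Ikaros is required for lymphocyte development and restrains the activation of mature T cells. Aiolos is best known from B cell maturation and from differentiated T cells, Helios and Eos from regulatory T cells, and Helios also from some CD8 T cells with regulatory or innate-like features. Pegasus is the most distant member and the least studied.

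Some libraries stood apart. 1 library was the same, count for count, in Naive replicate 1 and S+P C4 replicate 1, and it was left out of both. A pair of libraries from S+P C7 replicates 1 and 2 was nearly identical (Pearson's r = 0.999 across genes on the log2 CPM scale, against at most 0.948 for the technical libraries of any mouse and subset) and was counted as 1 sample, called here S+P C7 replicate 1 and 2. 3 samples held under 9000 detected genes: S+P C4 replicate 2 with 8002, S+P C4 replicate 3 with 7436 and S+P C7 replicate 3 with 7879. S+P C7 replicate 3 went against its PD1+ label, with *Pdcd1* (PD1) at 0.0467 CPM and the globin gene *Hba-a1* at 10046 CPM. *Jchain*, a plasma cell marker, was at 1895 CPM in that sample, and it reached 385 CPM in N+P C1 and 332 in Sensitized. The other libraries labelled S+P C7 had *Pdcd1* at 166 to 578 CPM. S+P C4 replicate 3 had *Pdcd1* and *Nt5e* (CD73) at 0. Total counts per sample ranged from 15547934 to 54809406. The T cell gene *Cd3e* was at 281 CPM or more and *Cd8a* at 567 CPM or more in every sample, while *Cd4* was at 3.71 CPM or less.

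Levels below are TMM-normalised CPM, that is read counts relative to the effective size of the library. To compare members with each other the CPM was divided by exonic length in kilobases (CPM per kb). By this measure *Ikzf1* (mean 31 CPM per kb over 30 samples, range 9.13 to 50.3) and *Ikzf3* (mean 29.3, range 5.01 to 52.5) were the abundant members, and both lay above 94% of the genes tested, at the percentiles 94.7 and 94.4. *Ikzf2* had a mean of 2.33 CPM per kb (range 0 to 9.28), *Ikzf5* 0.773 (range 0 to 10.8) and *Ikzf4* 0.613 (range 0 to 3.06). Counts of *Ikzf1* and *Ikzf3* were never under 1717 and 1160 in a sample. *Ikzf4* was at 0 counts in 9 of the 30 samples, *Ikzf2* in 3 and *Ikzf5* in 1. The cDNA was amplified and carried no molecular identifiers, so reads are not independent molecules and a floor of 3 counts covers counting error only.

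On GRCm39, *Ikzf1* (ENSMUSG00000018654) lies on the plus strand of chromosome 11 from 11634980 to 11723186 and *Ikzf3* (ENSMUSG00000018168) on the minus strand of the same chromosome from 98355728 to 98436857. *Ikzf2* (ENSMUSG00000025997) lies on the minus strand of chromosome 1 from 69570373 to 69727004. *Ikzf4* (ENSMUSG00000002578) lies on the minus strand of chromosome 10 from 128466712 to 128505227. *Ikzf5* (ENSMUSG00000040167) lies on the minus strand of chromosome 7 from 130989900 to 131012250. Exons of *Pstk*, a kinase gene on the other strand, cover 73.6% of the exonic bases of *Ikzf5*. The library kit does not mark strand, so reads from these bases cannot be assigned to 1 of the 2 genes, and the *Ikzf5* values are uncertain for that reason. Its CPM per kb was divided by the full exonic length with the shared bases, so its place among the low members is uncertain too. For *Ikzf2* and *Ikzf4* exons of other genes cover 1.10% and 2.85% of the exonic bases, and for *Ikzf1* and *Ikzf3* none.

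**Figure D1:**
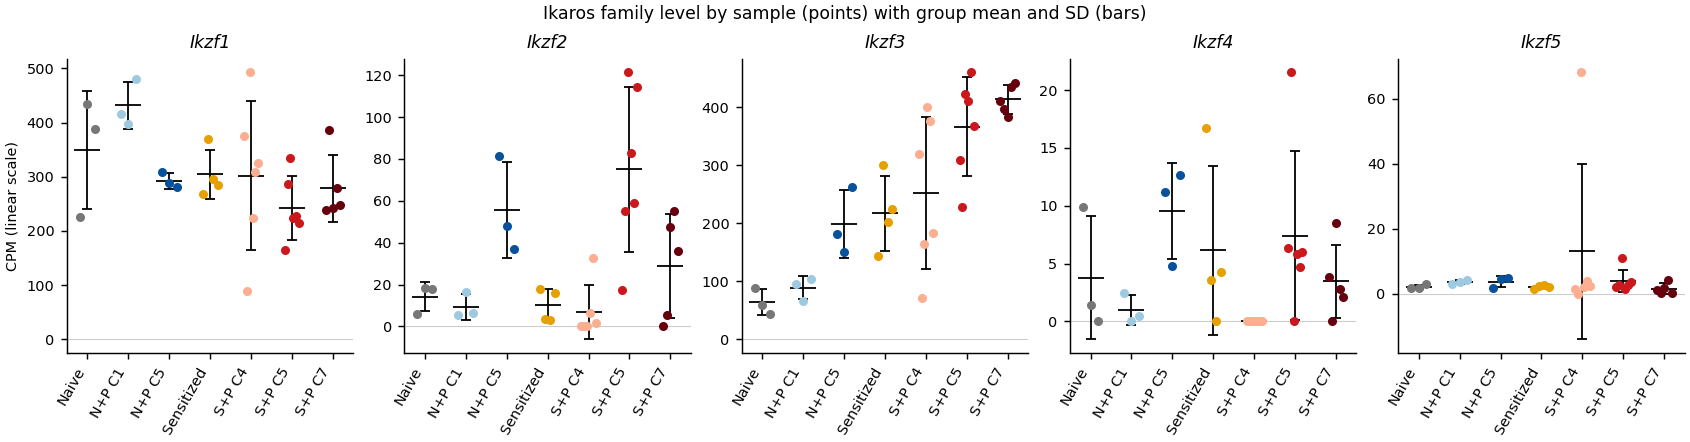
Level of each Ikaros family gene in CPM on linear axes, 1 point per sample and 1 panel per gene, with the group mean and SD as bars. *Ikzf3* ran from 43.8 to 88.7 CPM over Naive samples, and S+P C7 samples lay at 383 to 442, *Ikzf2* had its highest means in both C5 groups, *Ikzf4* was at 0 in all 6 S+P C4 samples, and 1 S+P C4 sample held *Ikzf5* at 68.1 CPM.

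Each library pair made from the same sorted sample shows how firmly a member can be read from 200 cells. In 23 samples with 2 usable libraries the median fold between the libraries was 1.31 for *Ikzf1* and 1.27 for *Ikzf3*, on CPM + 1 scaled by library total. It was 1.83 for *Ikzf2*, 1.94 for *Ikzf5* and 3.06 for *Ikzf4*. Pairs more than 2-fold apart numbered 1 for *Ikzf1*, 4 for *Ikzf3*, 10 each for *Ikzf2* and *Ikzf5* and 14 for *Ikzf4*. The widest *Ikzf3* pair was that of N+P C1 replicate 1, at 23.4 and 114 CPM. For *Ikzf4* 7 of the 23 pairs had 0 counts in a library and more than 3 in its partner, with up to 283 counts in the partner. *Ikzf2* had 1 such pair, and *Ikzf1*, *Ikzf3* and *Ikzf5* had 0.

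**Figure D2:**
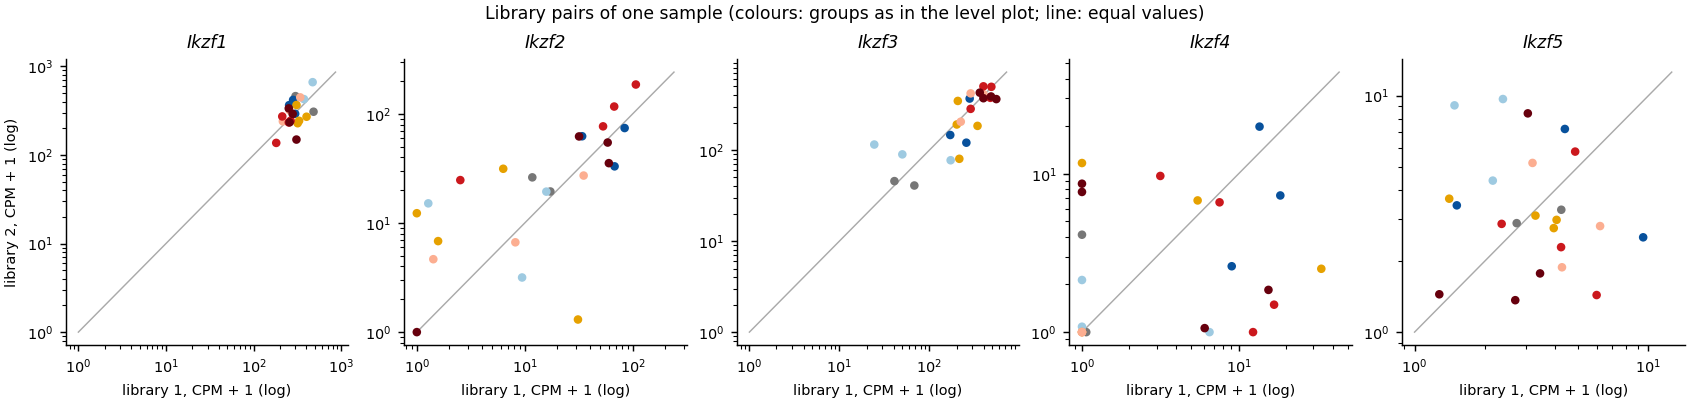
CPM + 1 of each gene in the first and second library of the same sample, on log axes, for 23 samples coloured by group, with a line of equal values. Most *Ikzf1* and *Ikzf3* pairs lie near the line, with median folds of 1.31 and 1.27, though an *Ikzf3* pair was at 23.4 and 114 CPM. *Ikzf4* has 7 pairs with 0 counts in a library and more than 3 in the other.

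In the edgeR fit 0 of the 60 values, 5 genes in 12 comparisons, passed both thresholds (a log2 fold change beyond 0.9 in either direction with an adjusted p under 0.1). An unadjusted p under 0.05 was found for 11 of them, 6 of *Ikzf3*, 3 of *Ikzf4* and 1 each of *Ikzf2* and *Ikzf5*. Those of *Ikzf4*, *Ikzf2* and *Ikzf5* fell in comparisons with S+P C4. The share of all genes under 0.05 was 12.7% against Sensitized, 13.3% against S+P C5 and 15.9% against S+P C7. DESeq2, the tool used in the study, called 6 of the 60, in comparisons where it called 4.59% to 5.48% of all genes.

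*Ikzf3* (Aiolos) was lowest in Naive samples by its mean and highest in S+P C7. Its level was 88.7, 59.2 and 43.8 CPM in Naive replicates 1 to 3 and 144, 300, 202 and 225 CPM in Sensitized replicates 1 to 4. The ranges of Sensitized and Naive did not overlap. The means were 64 ± 23 (SD, n = 3) and 218 ± 65 CPM (SD, n = 4). The edgeR log2 fold change was 1.77 (SE 0.45, 95% interval 0.84 to 2.69) with an adjusted p of 0.219, which did not pass the threshold of 0.1. The unadjusted p was 0.000468. DESeq2 called this difference (log2 fold change 1.79, adjusted p = 0.00371), and edgeR without the 3 samples of under 9000 genes did too (1.76, adjusted p = 0.00222), with 0.782% of genes called. In edgeR with all samples 0.153% of genes were called in this comparison and in DESeq2 5.48%. Groups that did not overlap were found for 7.59% of all genes. An unadjusted p under 0.05 was reached by *Ikzf3* in 6 comparisons. The share of all genes that reached it was 7.82% in Sensitized against Naive, 5.33% in N+P C5 against Naive, 4.31% in N+P C5 against N+P C1, 10.2% in S+P C7 against Sensitized, 15.9% in S+P C7 against S+P C4 and 5.88% in S+P C5 against N+P C5.

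After pregnancy in naive mice *Ikzf3* was at 96.0, 66.2 and 104 CPM in N+P C1 and at 182, 150 and 263 CPM in N+P C5. The PD1- cells overlapped with Naive cells, and the PD1+CD73+ cells were above all Naive and all N+P C1 samples. Over all genes, groups did not overlap for 12.9% in the comparison with Naive and 10.8% in that with N+P C1. For N+P C5 against Naive the edgeR log2 fold change was 1.63 (SE 0.47) with an adjusted p of 0.606, and for N+P C5 against N+P C1 it was 1.16 (SE 0.46) with an adjusted p of 0.919. For N+P C1 against Naive it was 0.47 (95% interval -0.46 to 1.41) with an adjusted p of 1. Percentages of genes called by edgeR were 0.0407% in N+P C5 against Naive, 0.00509% in N+P C5 against N+P C1 and 0% in N+P C1 against Naive. N+P C5 against Naive was called by DESeq2 (adjusted p = 0.0168, with 5.08% of genes called) and by edgeR without the 3 samples of low gene number (adjusted p = 0.00893, with 0.614% of genes called). N+P C5 against N+P C1 was called by neither, with 4.23% of genes called by DESeq2.

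In the sensitized and pregnant mice *Ikzf3* had the following values. S+P C7 samples had 410, 397, 383, 435 and 442 CPM, all above the highest Sensitized sample at 300. S+P C5 samples had a lowest value of 228, a median of 389 and a highest value of 460 CPM, and overlapped with Sensitized. S+P C4 samples spread from 71.5 to 400 CPM, with a median of 251. The edgeR log2 fold change was 0.93 (SE 0.38, adjusted p = 0.473) for S+P C7 against Sensitized, 0.75 (SE 0.37, adjusted p = 0.39) for S+P C5 against Sensitized and 0.21 (SE 0.36, adjusted p = 1) for S+P C4 against Sensitized. edgeR called 0.0305% of genes in the first of these, 0.0712% in the next and 0.00509% in the last. The exact two-sided permutation test of log2(CPM + 1) gave p = 0.00794 for S+P C7 against Sensitized, the smallest p that 126 splits allow, and an adjusted p of 0.92 over all genes. Non-overlapping groups were found for 2.15% of genes in that comparison. Without S+P C7 replicate 3 the other 4 values remain 383 to 442 CPM.

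Between the PD1+CD73+ cells of the grafted and of the naive mice after pregnancy, the mean *Ikzf3* level was 366 ± 85 CPM in S+P C5 (SD, n = 6) and 198 ± 58 in N+P C5 (SD, n = 3). The groups overlapped, and the edgeR log2 fold change was 0.89 (SE 0.41, adjusted p = 0.844). Within the S+P subsets the log2 fold change of S+P C5 against S+P C4 was 0.54 (95% interval -0.12 to 1.2), of S+P C7 against S+P C4 0.71 (0.02 to 1.4) and of S+P C7 against S+P C5 0.18 (-0.51 to 0.87), and the adjusted p was 0.295 or more. The difference of the pregnancy effects, (S+P C5 minus Sensitized) less (N+P C5 minus Naive), was -0.88 (SE 0.58, adjusted p = 1). edgeR called 0.0254% of genes for that difference, and 0% in S+P C7 against S+P C5 and in S+P C5 against N+P C5. Ordered by mean, the groups ran from Naive, the lowest, through N+P C1, N+P C5, Sensitized, S+P C4 and S+P C5 up to S+P C7. Of neighbours in this order only N+P C1 and N+P C5 did not overlap.

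**Figure D3:**
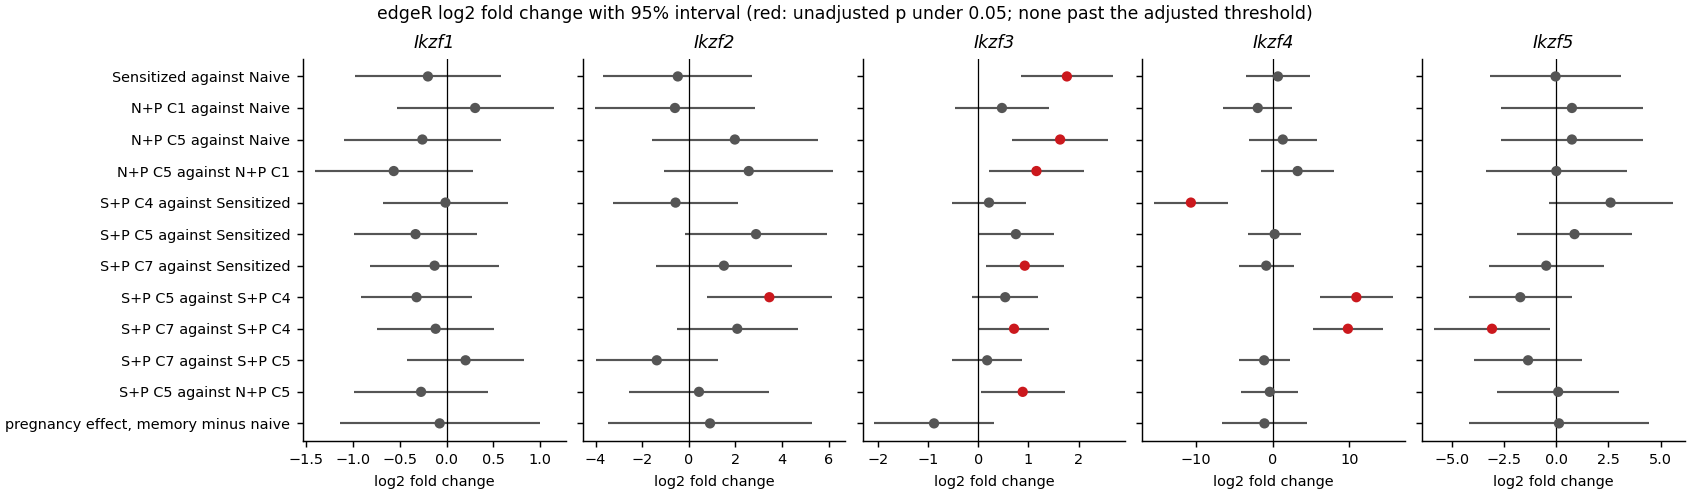
edgeR log2 fold change (points) with its 95% interval (lines) for each gene in 12 comparisons, with an unadjusted p under 0.05 in red. *Ikzf3* has red points for 6 comparisons, all above 0, and 0 of the 60 values passed the adjusted threshold. The *Ikzf4* points near -10 and 10 involve S+P C4, where the gene was at 0 in every sample, and their size depends on the prior count of the fit.

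*Ikzf2* (Helios) had its 2 highest group means in the PD1+CD73+ groups. It was at 81.3, 48.1 and 37.0 CPM in N+P C5, against 5.36, 16.4 and 6.20 CPM in N+P C1 and 6.05, 18.4 and 17.9 CPM in Naive. Every N+P C5 sample was above every sample of the other 2 groups. In edgeR the log2 fold change was 1.97 (SE 1.75, adjusted p = 1) against Naive and 2.57 (SE 1.78, adjusted p = 1) against N+P C1. For *Ikzf3* the SEs of these comparisons were 0.47 and 0.46. With 3 samples a side the exact permutation test cannot give a p below 0.1, and it gave 0.1 in both. The shares of all genes without overlap were the 12.9% and 10.8% given for *Ikzf3*.

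In S+P C5 *Ikzf2* had a lowest value of 17.3, a median of 70.8 and a highest value of 121 CPM. In Sensitized it was at 17.8, 3.75, 3.25 and 15.8 CPM, and only the lowest S+P C5 sample, replicate 1, fell within that range. S+P C4 samples had a median of 0.817 CPM, with 2 samples at 0 and the highest, replicate 5, at 32.8. In edgeR the log2 fold change was 2.88 (SE 1.5, adjusted p = 0.439) against Sensitized and 3.46 (SE 1.31, adjusted p = 0.297) against S+P C4. The exact permutation p was 0.00952 and 0.00433, with adjusted values of 0.345 and 0.368. That test split the samples freely. For S+P C5 against S+P C4 it ignored that same-numbered subsets were taken as 1 mouse. DESeq2 called S+P C5 against S+P C4 (adjusted p = 0.0427, with 4.9% of genes called against 0.0305% in edgeR) but not S+P C5 against Sensitized, where it called 4.98% of genes.

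The PD1+CD73- cells lay between. S+P C7 samples had *Ikzf2* at 0, 5.23, 47.7, 55.3 and 36.0 CPM, which overlapped with each of the other S+P subsets. The log2 fold change was -1.38 (95% interval -4.00 to 1.25) against S+P C5 and 2.08 (-0.52 to 4.67) against S+P C4. The 5.23 CPM came from replicate 3 with its low *Pdcd1*. Between the PD1+CD73+ groups, S+P C5 and N+P C5, the log2 fold change was 0.43 with an interval of -2.59 to 3.46. Of neighbours in the order of means (S+P C4, N+P C1, Sensitized, Naive, S+P C7, N+P C5, S+P C5) all overlapped.

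Subsets with the same replicate number were taken as sorted from 1 mouse. In the N+P mice *Ikzf2* and *Ikzf3* were each higher in C5 than in C1 in 3 of 3 mice, by 2.92 to 15.2 times for *Ikzf2* and 1.89 to 2.54 times for *Ikzf3*. In the S+P mice *Ikzf2* was higher in C5 than in C4 in 6 of 6 and *Ikzf3* in 5 of 6. These 6 include S+P C4 replicates 2 and 3, of under 9000 genes, with *Ikzf2* at 0 and 0.199 CPM and *Ikzf3* at 71.5 and 164. The share of all genes with 1 direction in every mouse was not computed, so the counts of mice are a description. Between C7 and C5, with the 4 mice whose C7 sample carries a single number, *Ikzf2* was lower in C7 in 4 of 4 and *Ikzf3* in 3 of 4. The same 4 mice had more *Ikzf1* in C7 than in C5, by 1.08 to 1.23 times. These ratios were below the median fold of 1.31 between libraries of the same sample. Replicate 3, whose C7 sample had *Pdcd1* at 0.0467 CPM, is among the 4 mice. With the replicate number as a block edgeR called 0 of the members that could be fitted in the 11 comparisons between groups. The share of all genes called by the blocked fits is not given here, so this count is a description. *Ikzf4* could not be fitted in the 3 comparisons with S+P C4, so the DESeq2 calls given for it there have no blocked value.

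**Figure D4:**
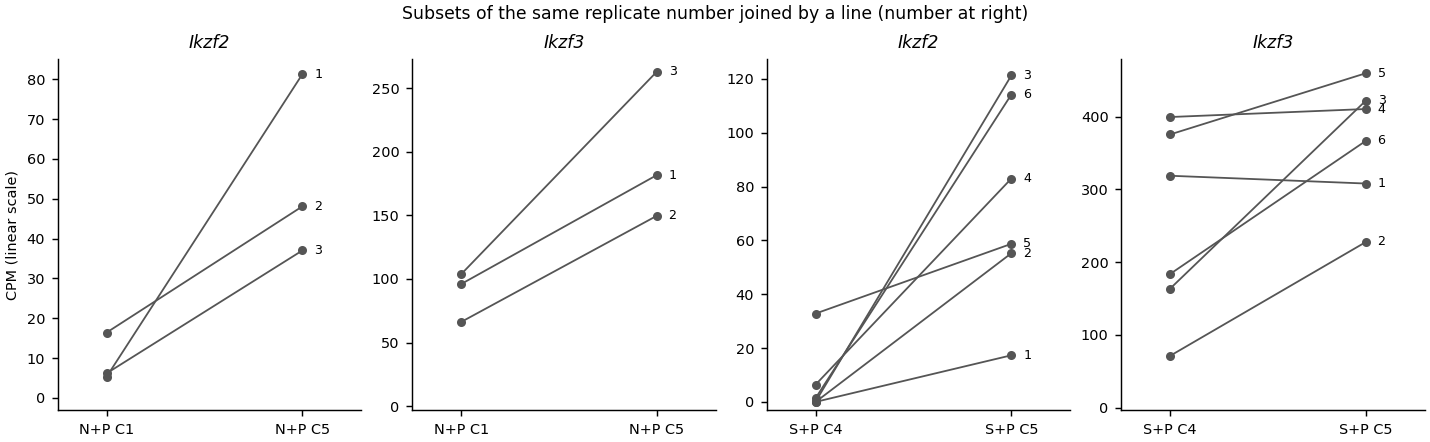
*Ikzf2* and *Ikzf3* in CPM on linear axes in the PD1- subset and the PD1+CD73+ subset of N+P and S+P mice, with lines joining samples of the same replicate number. *Ikzf2* is higher in the PD1+CD73+ subset on all 3 N+P lines and all 6 S+P lines, and *Ikzf3* on all 3 N+P lines and 5 of 6 S+P lines. The S+P lines numbered 2 and 3 start from S+P C4 samples of under 9000 genes.

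Levels of genes listed as markers of other cells moved with some of these groups, and their part in the results was not tested. The summed CPM of the gamma-delta T cell genes found in the table (4 of the 5 listed) was 7.18 to 25.1 in Naive, 7.21 to 17.6 in N+P C1, 11.1 to 84.8 in N+P C5 and 1.15 to 13.7 in Sensitized. It was 86.7 to 376 in S+P C5, 0.298 to 1374 in S+P C4 and 56.6 to 1009 in S+P C7. *Trdc*, the delta-chain constant gene, was at 0 in all 6 S+P C5 samples and at most 0.414 CPM in S+P C7, so the sums there came from the gamma-chain genes. The 3 NK cell genes summed to 99.3 to 227 CPM in Sensitized and 0.0823 to 55.4 in Naive, which did not overlap, as for *Ikzf3*. They summed to 130 to 388 CPM in S+P C7 samples, 107 to 202 in S+P C5, 1.09 to 194 in S+P C4, 38.1 to 66.6 in N+P C5 and 28.4 to 51.1 in N+P C1. *Ncr1*, the NK cell receptor gene, was at 0 in all 3 Naive, in 3 of 4 Sensitized and in all 6 S+P C5 samples, and reached 103 CPM in S+P C7. *Klrb1c*, also on the NK list, was at 53.3 to 126 CPM in Sensitized and at most 0.0823 in Naive. *Eomes*, the last on that list, was at 97.7 to 202 CPM in S+P C5. By flow cytometry the paper reports a stronger EOMES induction in S+P than in N+P T_FGS. The 5 myeloid genes summed to 1.59 to 47.1 CPM over Naive samples and 42.7 to 399 over Sensitized samples, and in N+P C5 to 15.6 to 19.8 and N+P C1 to at most 7.59. Their sums were 57.5 to 134 CPM in S+P C7 samples, 30.6 to 109 in S+P C5 and 0 to 119 in S+P C4. *Adgre1*, the macrophage gene for F4/80, was at 0 in all 4 Sensitized samples and at most 0.0331 CPM in Naive. *Itgax*, on the same list, was at 29.8 to 84.3 CPM in Sensitized and 0 in Naive, and *Lyz2* reached 332 CPM in Sensitized. The 5 B cell genes summed to 33.3 to 62.8 CPM in N+P C5, 11.8 to 34.0 in Naive and 7.44 to 14.7 in Sensitized. They summed to at most 32.9 CPM in N+P C1, 26.0 in S+P C5, 15.9 in S+P C4 and 17.0 in S+P C7. The regulatory T cell gene *Foxp3* was at most 4.45 CPM in any sample. In bulk samples fewer cells that express a gene and less RNA per cell cannot be told apart.

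*Ikzf1* (Ikaros) was abundant in every group. It was at 226, 435 and 388 CPM in Naive, 417, 398 and 480 CPM in N+P C1 and 309, 288 and 281 CPM in N+P C5. All N+P C5 samples were below all N+P C1 samples, as for 10.8% of genes in either direction. The edgeR log2 fold change was -0.56 (SE 0.41, 95% interval -1.4 to 0.28, adjusted p = 1). Sensitized samples had 268, 370, 296 and 285 CPM and S+P C7 samples 240, 386, 242, 280 and 248 CPM. S+P C5 samples had a lowest value of 164, a median of 226 and a highest value of 335 CPM. S+P C4 samples ran from 89.4 (replicate 2, a sample of under 9000 genes) to 493 (replicate 3, another), with a median of 317. The edgeR log2 fold changes of *Ikzf1* lay between -0.56 and 0.30 in the 11 comparisons between groups, and every 95% interval included 0. Neighbouring groups in the order of means all overlapped.

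The relation of *Ikzf3* to *Ikzf1* within a library does not depend on the scaling between libraries. On the CPM per kb scale the ratio of *Ikzf3* to *Ikzf1* was 0.439, 0.152 and 0.126 in Naive and 0.258, 0.186 and 0.242 in N+P C1. It was 0.658, 0.581 and 1.05 in N+P C5 and 0.600, 0.905, 0.762 and 0.883 in Sensitized. These 2 groups lay wholly above Naive and N+P C1. In S+P C5 the ratio ran from 0.888 to 2.26 with a median of 1.97, and in S+P C7 it was 1.91, 1.15, 1.77, 1.74 and 2.00. S+P C4 spread from 0.372 to 2.00 with a median of 0.923. *Ikzf1* thus made up 78.1% of the summed CPM per kb of the family in Naive cells (SD 11.1, n = 3) and 33.6% in S+P C5 (SD 6.9, n = 6), where *Ikzf3* made up 56.5% (SD 9.0). The ratio was chosen after the values had been seen and is given as a description.

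**Figure D5:**
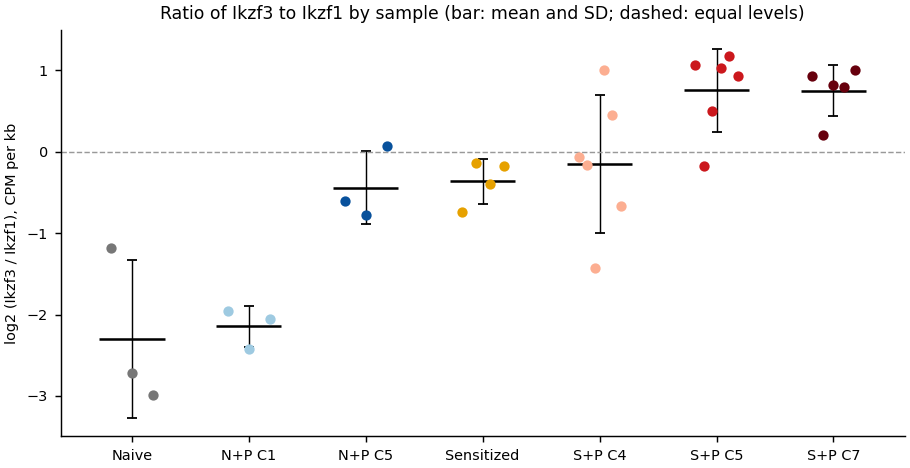
log2 of the ratio of *Ikzf3* to *Ikzf1*, both in CPM per kb, by group, with 1 point per sample, the mean and SD as bars and a dashed line at equal levels. All Naive and N+P C1 samples lie below -1, all Sensitized samples lie between -0.738 and -0.143, and 10 of the 11 S+P C5 and S+P C7 samples lie above 0.

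*Ikzf4* (Eos) was a low-abundance member whose values were often 0. In N+P C5 it was at 11.2, 4.79 and 12.6 CPM, above all N+P C1 samples at 2.44, 0.0348 and 0.488 CPM, as groups did not overlap for 10.8% of all genes. Its log2 fold change in edgeR was 3.27 (SE 2.32, adjusted p = 1). Naive samples had 9.88, 1.42 and 0.0378 CPM and Sensitized samples 16.7, 3.55, 0 and 4.31 CPM. S+P C5 samples had a lowest value of 0, a median of 5.93 and a highest value of 21.5 CPM, and S+P C7 samples had 3.83, 0, 8.49, 2.84 and 2.10 CPM.

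In S+P C4 *Ikzf4* had 0 counts in all 6 samples. The floor of 3 counts was 0.298 CPM in the shallowest S+P C4 sample. Set against it, the mean was 24.9-fold higher in S+P C5, 20.6-fold in Sensitized and 11.6-fold in S+P C7. That floor covers counting error only, and libraries with 0 counts of *Ikzf4* faced up to 283 in their partner, so these folds are not lower bounds. S+P C4 replicates 1, 2 and 3 rested on 1 library each, and replicates 2 and 3 held under 9000 genes. S+P C4 still overlapped with S+P C5, Sensitized and S+P C7, since 1 sample in each of those 3 groups was also at 0. edgeR gave an adjusted p of 0.173, 0.317 and 0.244 for these 3 comparisons, and the exact permutation p was 0.0152, 0.0333 and 0.0152 before adjustment and 0.548 or more after it. The permutation ignored mouse numbers for S+P C5 and S+P C7 against S+P C4. DESeq2 called all 3 (adjusted p = 3.32e-08, 1.48e-06 and 5.62e-06, with 4.9%, 4.64% and 4.59% of genes called). edgeR called 0.0305%, 0.00509% and 0.00509% of genes. In the order of means (S+P C4, N+P C1, S+P C7, Naive, Sensitized, S+P C5, N+P C5) only S+P C4 and N+P C1 did not overlap, at 0 and at 0.0348 CPM or more, and the 0.0348 CPM was 1 count.

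*Ikzf5* (Pegasus) was at 1.53 to 4.84 CPM in every sample of N+P C5, N+P C1, Sensitized and Naive. It was at 3.04, 3.73 and 4.31 CPM in N+P C1, just above 1.73, 1.92 and 2.95 CPM in Naive, and groups did not overlap for 7.3% of genes in that comparison (log2 fold change 0.75, SE 1.67, adjusted p = 1). S+P C5 ran from 1.49 to 10.9 CPM with a median of 2.74, and S+P C7 samples had 1.11, 0.187, 1.69, 4.34 and 0.293 CPM. S+P C4 had a median of 2.36 CPM, but replicate 3 was at 68.1 and replicate 2 at 0. The log2 fold change of S+P C7 against S+P C4 was -3.09 (SE 1.37, adjusted p = 0.262), and the mean of S+P C4 rests on replicate 3. Neighbouring groups in the order of means all overlapped. *Pstk*, which shares exonic bases with *Ikzf5*, was at 0.298 CPM in that sample and at 390 CPM in S+P C4 replicate 2, against 11.8 to 80.4 CPM in all other samples but S+P C4 replicate 1 at 0.0412.

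The partners of the family were read as lists. Of 13 genes of the NuRD complex, of 4 genes for the other corepressors CtBP and Sin3 and of 5 genes of the CRL4-CRBN ubiquitin ligase, 0 passed the edgeR thresholds in either direction in any of the 12 comparisons. DESeq2 called 1 of them, *Gatad2b*, higher in S+P C4 than in Sensitized. CRL4-CRBN is the ligase through which thalidomide analogues bring about the breakdown of human Ikaros and Aiolos. In N+P C5 against Naive the median log2 fold change was 0.01 for NuRD, -0.37 for the corepressors and 0.05 for the ligase, beside 0 for all genes. In S+P C5 against Sensitized these medians were 0.06, -0.12 and 0.07, beside -0.01 for all genes. At an unadjusted p under 0.05 the only genes of these lists were *Gatad2b* and *Mbd2* in S+P C4 against Sensitized and *Mbd2* and *Cul4b* in S+P C5 against S+P C4. The smallest unadjusted p values for the 2 main comparisons were those of *Cul4b*, a scaffold of the ligase (log2 fold change 2.40, SE 1.46, adjusted p = 0.586 in S+P C5 against Sensitized), and *Hdac2*, a NuRD deacetylase (-0.99, SE 0.82, adjusted p = 1 in N+P C5 against Naive).

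Of 12 genes reported as regulated by Ikaros family proteins in lymphocytes, 1 passed the edgeR thresholds in 1 comparison, Sensitized against Naive, where 0.153% of all genes did. DESeq2 called at most 4 of the 12 in a comparison, in N+P C5 against Naive (*Ifng*, *Il10*, *Foxp3* and *Hes1*) and in S+P C5 against Sensitized (*Bcl2*, *Dntt*, *Foxp3* and *Il10*), although *Foxp3* was at 0 in most samples. DESeq2 called 5.08% and 4.98% of all genes in these comparisons. The genes named for a DESeq2 call or an unadjusted p were chosen after their values had been seen. *Ifng*, the gene of the cytokine interferon gamma, was higher in Sensitized than in Naive, at 97.0 ± 57.1 CPM (SD, n = 4) against 3.39 ± 2.87 (SD, n = 3). The edgeR log2 fold change was 4.84 (SE 1.10, adjusted p = 0.0826). Its mean was 144 ± 75 CPM in S+P C5 (SD, n = 6) and 88.1 ± 58.5 in N+P C5 (SD, n = 3). *Bcl2*, a survival gene, was at 280 ± 65 CPM in Sensitized (SD, n = 4) and 113 ± 30 in S+P C5 (SD, n = 6), and its edgeR log2 fold change was -1.32 (SE 0.41, adjusted p = 0.277). *Dntt*, which encodes terminal transferase and is active in early lymphocytes, averaged 46.2 CPM in Naive samples, 6.01 in Sensitized, 0.0305 in S+P C5 and 7.82 in N+P C5. *Il10*, a cytokine gene, was at 0 in all Naive and Sensitized samples and averaged 15.9 CPM in S+P C7 and 11.9 in S+P C5, and the adjusted p was 0.277 for both *Dntt* and *Il10* in S+P C5 against Sensitized. The median log2 fold change of the 12 genes was 0.32 for N+P C5 against Naive. It was -0.03 for S+P C5 against Sensitized.

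The genes most like each member over the 30 samples were found by Spearman's rho on log2(CPM + 1), among genes with a mean of at least 10 CPM. They share libraries and depth, and the values are a description. For *Ikzf3* they were *Gm37004* (rho 0.862), the Src-family kinase gene *Fyn* (0.850) and the interleukin-10 receptor gene *Il10ra* (0.838), where 1% of genes had a rho above 0.671. *Il10ra* was at 10.2 CPM on average in Naive, 81.3 in N+P C5, 99.1 in Sensitized and 247 in S+P C5. For *Ikzf2* they were *Ahi1* (0.890), *Twsg1* (0.870) and *St6galnac3* (0.857), and *St6galnac3* averaged 17.3 CPM in Naive samples. It averaged 76.5 CPM in S+P C5 and 50.2 in N+P C5. For *Ikzf1* they were *Rapgef6* (0.765), *Pkn2* (0.750) and *Resf1* (0.726). For *Ikzf4* they were *Pgm1* (0.726), *Eif1b* (0.691) and *Tnfrsf18* (0.691), the gene of the receptor GITR, and for *Ikzf5* they included *Cdk12* (0.769) and *Foxo1* (0.734).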

How the data were processed

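RNA was measured in 30 samples of 7 groups. The values that the authors deposited are raw counts of reads in each gene, not normalized, in a column for each library. Per the labels and the paper's methods, reads were trimmed with Cutadapt 3.4, aligned with STAR 2.6.1b to GRCm39 and, after removal of reads that mapped to several places, counted with featureCounts 2.0.1. The strand option and annotation release are not given in the sources used here. The 56 libraries held 6636532 to 32625243 counts. Technical libraries were summed per sample.

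edgeR 4.0.16 in R 4.3.3 fitted all groups together by its robust quasi-likelihood method, with TMM scaling and a filterByExpr minimum of 10 counts. Its tests were two-sided, with Benjamini-Hochberg adjustment over 19657 genes. A call needed an adjusted p below 0.1 together with a log2 fold change beyond 0.9 in either direction, which are the study's own thresholds. The functions were run on simulated counts with known changes, and the share of those changes recovered is not given here. Alternatives were DESeq2 1.42.0, library size or RLE scaling, no low-count filter, only the groups compared, the replicate block, all 56 columns (31 samples), leaving out samples under 9000 genes, and leaving out each replicate. Exact permutation tests of log2(CPM + 1), with a pseudocount of 1, were added after the data had been seen. These tests, the main edgeR fit and DESeq2 took all samples as independent, including subsets taken as 1 mouse. Exonic lengths and positions came from the GENCODE annotation on GRCm39. Tables were made with Python 3.11.15, pandas 2.3.3, numpy 2.4.6 and scipy 1.17.1, and plots with matplotlib 3.10.9.

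All 5 members were named with their values. From each list the genes past the thresholds were named, and at most 3 others with the smallest unadjusted p. Some genes that meet the rules for naming are not reported here. The members and lists were chosen with earlier results of these data known. Replicate numbers come from the labels. Cells were sorted from individual mice, so subsets of the N+P or of the S+P mice with the same number were taken as 1 mouse, which the labels do not state. Deviations from the group mean correlated between same-numbered samples at a mean of 0.129 in N+P C5 and N+P C1, where the lowest pair was at 0.05. Between S+P subsets the means were 0.151 to 0.185. Between groups of different mice, samples that shared only a number had means of 0.04 to 0.083.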

Additional observations from a re-analysis of the deposited data

Results flagged for a closer look

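In groups of 4 to 6 samples, 5 of 19 combinations of a gene and a group held a sample far from the rest, by the gap to its nearest neighbour over the range of the group. For normally distributed values chance gives about 1 in 20, a rate not tested for CPM that are skewed or often 0. *Ikzf5* was at 68.1 CPM in S+P C4 replicate 3, where the next sample was at 3.90. *Ikzf5* was also far from the rest in S+P C5 replicate 3, at 10.9 CPM with the next at 3.54. *Ikzf2* was at 32.8 CPM in S+P C4 replicate 5, with the next at 6.45. *Ikzf4* was at 21.5 CPM in S+P C5 replicate 2, with the next at 6.39. *Ikzf1* was at 386 CPM in S+P C7 replicate 3, with the next at 280, and this sample is the one with *Pdcd1* at 0.0467 CPM.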

How the results depend on the processing

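The number of members called was 0 in all 12 comparisons, and it stayed 0 with RLE, library size, no filter and the replicate block. The shares of all genes called with these alternatives are not given here, so the counts describe the members only. The exact permutation test also called 0, but with 3 samples a side its smallest p is 0.1, so it could call no gene there. In Sensitized against Naive and S+P C7 against Sensitized *Ikzf3* had the smallest p that the splits allow, 0.0286 and 0.00794. The adjusted p at that smallest p was 0.667 and 0.92, so the permutation test called no gene in these comparisons either. The number of members called was 1 with DESeq2 in Sensitized against Naive (*Ikzf3*), N+P C5 against Naive (*Ikzf3*), S+P C4 against Sensitized and S+P C7 against S+P C4 (*Ikzf4*), and 2 in S+P C5 against S+P C4 (*Ikzf2*, *Ikzf4*). DESeq2 called 551 to 1078 of all genes in a comparison against 0 to 30 in edgeR, and gave no p for *Ikzf5*. *Ikzf3* was the 1 member called in Sensitized against Naive with all 56 columns (adjusted p = 0.0866, among 20 genes called), with only the groups compared (0.0941, among 98) and without the samples under 9000 genes (among 153), and the last also called *Ikzf3* in N+P C5 against Naive (among 120). With only the groups compared *Ikzf2* was the 1 call in S+P C5 against Sensitized (adjusted p = 0.094, among 142 genes). When replicates were left out in turn the count ran from 0 to 1 in S+P C5 against S+P C4 (*Ikzf4* without S+P C5 replicate 3, among 7 genes) and was 0 elsewhere. The cause of these changes was not tested. *Ikzf4* could not be fitted in the 3 comparisons with S+P C4 under the replicate block or with only the groups compared, because it failed the low-count filter there.

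Library size in place of TMM moved the median log2 fold change of all genes by 0.138 in Sensitized against Naive, 0.144 in S+P C5 against S+P C4 and -0.116 in the difference of the pregnancy effects. 1027 of 1089 gene values kept their sign and side of the thresholds, 12 passed them and 50 changed sign. For *Ikzf5* in N+P C5 against N+P C1 the sign changed to 0.056 with DESeq2 and 0.057 with RLE, 0.098 with library size, 0.002 with no filter, 0.007 without samples under 9000 genes and 0.004 with only the groups compared. For *Ikzf1* in S+P C4 against Sensitized it changed to 0.06 with DESeq2, 0.06 with RLE, 0.045 without samples under 9000 genes and 0.007 with only the groups compared, and in S+P C7 against S+P C4 to 0.017 with library size and 0.032 by the permutation scale. *Ikzf5* in Sensitized against Naive went to 0.086 with library size and 0.071 with all 56 columns. *Ikzf1* in the difference of the pregnancy effects went to 0.018 with all columns. Without samples under 9000 genes *Ikzf2* in S+P C4 against Sensitized went to 0.065 and *Ikzf5* in S+P C5 against S+P C4 to 0.64. With the replicate block *Ikzf3* and *Ikzf5* in S+P C4 against Sensitized went to -0.023 and -0.083, *Ikzf2* in S+P C7 against Sensitized to -0.45, *Ikzf5* in S+P C5 against S+P C4 to 0.17 and *Ikzf2* in S+P C5 against N+P C5 to -0.053, and the block changed no call. Only N+P or S+P subsets of the same number were taken as 1 mouse. In the other comparisons the blocked samples came from different mice and share only a number. By the permutation scale *Ikzf5* in S+P C5 against N+P C5 went to -0.068.

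When replicates were left out in turn, *Ikzf4* ran from -0.54 to 3.06 in Sensitized against Naive, -3.83 to 0.43 in N+P C1 against Naive, -0.40 to 1.504 in S+P C5 against Sensitized, -1.47 to 0.43 in S+P C7 against Sensitized, 10.3 to 11.2 in S+P C5 against S+P C4 and -3.43 to 0.17 in the difference of the pregnancy effects. *Ikzf5* ran from -0.18 to 0.23 in Sensitized against Naive, -0.24 to 0.33 in N+P C5 against N+P C1, -0.54 to 0.34 in S+P C5 against N+P C5, -0.06 to 2.87 in S+P C4 against Sensitized, -2.39 to 0.93 in S+P C5 against S+P C4 and -0.49 to 0.37 in the difference of the pregnancy effects. *Ikzf1* ran from -0.26 to 0.16 in that difference, -0.19 to 0.17 in S+P C4 against Sensitized and -0.32 to 0.039 in S+P C7 against S+P C4. *Ikzf4* was read with little precision, since 7 of 23 library pairs had 0 counts in a library and up to 283 in its partner, and the cause was not tested.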
